A study of Mus musculus with 53 samples.

Results

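Igha, Ighm, Jchain, Mzb1, Cd79a, Cd79b, Ms4a1 and Pigr were followed through all 53 libraries of the study. They are 8 of the 55421 genes in the count table and were picked by symbol, as genes of B cells, plasma cells and the transport of IgA. All 8 had a row in the table.

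Plasma cells beneath the gut epithelium secrete IgA, whose heavy chain constant region is encoded by Igha, as polymers held together by the J chain (Jchain). The polymeric immunoglobulin receptor, Pigr, sits on the basolateral face of epithelial cells, binds these polymers and carries them to the lumen, where the cleaved receptor stays on the antibody as secretory component. B cells that have not become plasma cells gather in lymphoid follicles and in Peyer's patches. They carry membrane IgM (Ighm) or another antibody together with the signalling pair Cd79a and Cd79b, and the CD20 protein encoded by Ms4a1, which is lost on the way to a plasma cell. Mzb1 encodes a protein of the endoplasmic reticulum that helps antibody chains to assemble.

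Every mouse carried the VilCreER transgene and was induced with tamoxifen. The Villin promoter drives the recombinase in intestinal epithelium, so the floxed and mutant alleles were recombined there and not in B cells or plasma cells. RNA came from whole tissue. BA mice (BrafV600E/+ Alk5fl/fl, where Alk5 is the TGFβ receptor gene Tgfbr1) gave 4 endpoint primary tumours of the proximal colon, set against 3 WT proximal colons. At day 30 after induction (d30), proximal colon came from 4 WT mice, 4 A mice (Alk5fl/fl), 4 A mice given sulindac at 0.4 g/L for 14 days and then normal water, 5 BA mice, and 5 BA mice given ampicillin at 1 g/L, neomycin trisulphate at 1 g/L, vancomycin at 500 mg/L and metronidazole at 1 g/L in their water, begun on the day after tamoxifen. At day 4 (d4), small intestine came from 10 Apcfl/fl and 6 WT mice. A last set held 5 small intestinal adenomas of Apcfl/+ mice and 3 WT small intestines (WT SI), both on inbred C57BL6/J at N9, where the other groups were on mixed C57BL/6J at N6. The labels gave no age, sex or batch, and p-values measure the spread between these libraries only.

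The libraries held 516985 to 32824795 reads on genes, and levels are given as normalised CPM, the read count of a gene relative to the total of its library after TMM scaling over all 53 libraries. A gene was called changed at an adjusted p under 0.05 in edgeR's quasi-likelihood test with Benjamini-Hochberg adjustment over all genes tested in that comparison. Reads on the targeted genes did not check the genotypes. Tgfbr1 was at 41.1 to 57.1 normalised CPM in BA d30 and 34.7 to 66.1 in WT d30, and it was higher in BA tumours than in WT colon (87.6 to 172 against 50.4 to 56.3, adjusted p = 0.0156), where the counts take in the whole gene in whole tissue. Apc differed by 0.37 on the log2 scale in Apcfl/fl d4 (adjusted p = 0.125) and by −0.34 in adenomas (adjusted p = 0.0114). Apcfl/fl d4 replicate 8, WT SI d4 replicate 4 and WT SI replicate 1 stood apart in B cell reads, with Ms4a1 at 22.1, 40.3 and 44.1 normalised CPM. Reads on Gm13394 also split the libraries at 10 CPM within Apcfl/fl d4 (6 of 10 above), WT SI d4 (3 of 6) and endpoint BA tumours (3 of 4). They were above it in all BA and A libraries at d30 and in no WT d30 library. That split and the genotype thus cannot be told apart in comparisons with WT d30, nor in adenomas (0 of 5 above) against WT SI (3 of 3). No WT colon was above it. Reads on Ddx3y, a gene of the Y chromosome, were over 10 CPM in every d30 library. They were over it in 0 of 3 WT colons and 3 of 4 BA tumours, and in 3 of 3 WT SI and 1 of 5 adenomas. At d4 they were over it in 4 of 6 WT and 4 of 10 Apcfl/fl libraries. By this gene, sex was not balanced in the BA tumour and adenoma comparisons, and its part was not tested. In whole tissue, fewer cells of a type and less RNA per cell cannot be told apart.

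By GENCODE M21 on GRCm38, the antibody genes Igha (chr12:113254830-113260236) and Ighm (chr12:113418558-113422730) lie on the minus strand of the heavy chain locus. Jchain is at chr5:88519809-88527891, Cd79b at chr11:106311341-106314762 and Ms4a1 at chr19:11249675-11266241, all on the minus strand. Cd79a (chr7:24897381-24902197) and Pigr (chr1:130826684-130852249) are on the plus strand. Mzb1 overlaps a neighbour on its own strand by 695 bases and shares 54.7% of its 36-base stretches with other genes, so its counts are uncertain; for Cd79a the shared part was 11.2%. Pigr, the epithelial member and the one with the smallest adjusted p in BA d30 and in Apcfl/fl d4, has the following 250 bases upstream of its annotated start in RefSeq (GRCm38.p6, chr1:130826434-130826683, plus strand), with capitals marking the E-box CACGTG, the motif bound by upstream stimulatory factors.

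Pigr: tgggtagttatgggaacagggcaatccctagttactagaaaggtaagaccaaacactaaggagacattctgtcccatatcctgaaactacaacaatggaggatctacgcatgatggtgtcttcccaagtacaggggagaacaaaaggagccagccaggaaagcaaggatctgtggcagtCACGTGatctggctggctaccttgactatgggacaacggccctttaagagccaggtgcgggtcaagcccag

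The E-box lay 71 to 66 bases before the start, and 6.02% of 32851 promoter windows of the same length held one. The octamer ATGCAAAT, a motif of antibody gene promoters held by 1.6% of the windows, and TATAAA, held by 12.4%, were searched on both strands in the promoters of Pigr, Jchain and Cd79a, the 3 members matched in RefSeq. Neither run of letters was there, and the E-box was in that of Pigr alone.

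IgA transcripts were abundant in every group. Median Igha ran from 1070 normalised CPM in antibiotic-treated BA colon, through 1270 in BA d30, 1410 in WT colon, 1900 in endpoint BA tumours, 2670 in WT d30, 2720 in sulindac-treated A, 2750 in A d30 and 2930 in Apcfl/fl d4, to 7080 in WT SI, 7430 in Apcfl/+ adenomas and 10500 in WT SI d4. Neighbours in this order had overlapping ranges, Apcfl/fl d4 and WT SI only through Apcfl/fl replicate 2 at 7210. Median Pigr was lowest in the same pair, at 806 in antibiotic-treated BA and 827 in BA d30. It was 1110 in BA tumours, 1370 in Apcfl/fl d4, 1470 in WT colon, 1900 in Apcfl/+ adenomas, 2520 in A d30, 2540 in A with sulindac, 2690 in WT SI, 3760 in WT d30 and 6280 in WT SI d4. Per kilobase, Igha in WT d30 reached 1040 normalised CPM, Pigr 943 and Jchain 240, against 9.18 for Ighm and 0.196 for Ms4a1. Igha, Jchain and Pigr thus stood far above the genes of B cells that have not become plasma cells, whereas Mzb1, at 1.33, did not. Ms4a1 had no read in 1 library, Apcfl/fl d4 replicate 1, the shallowest, where 3 reads would be 5.8 CPM.

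**Figure D1:**
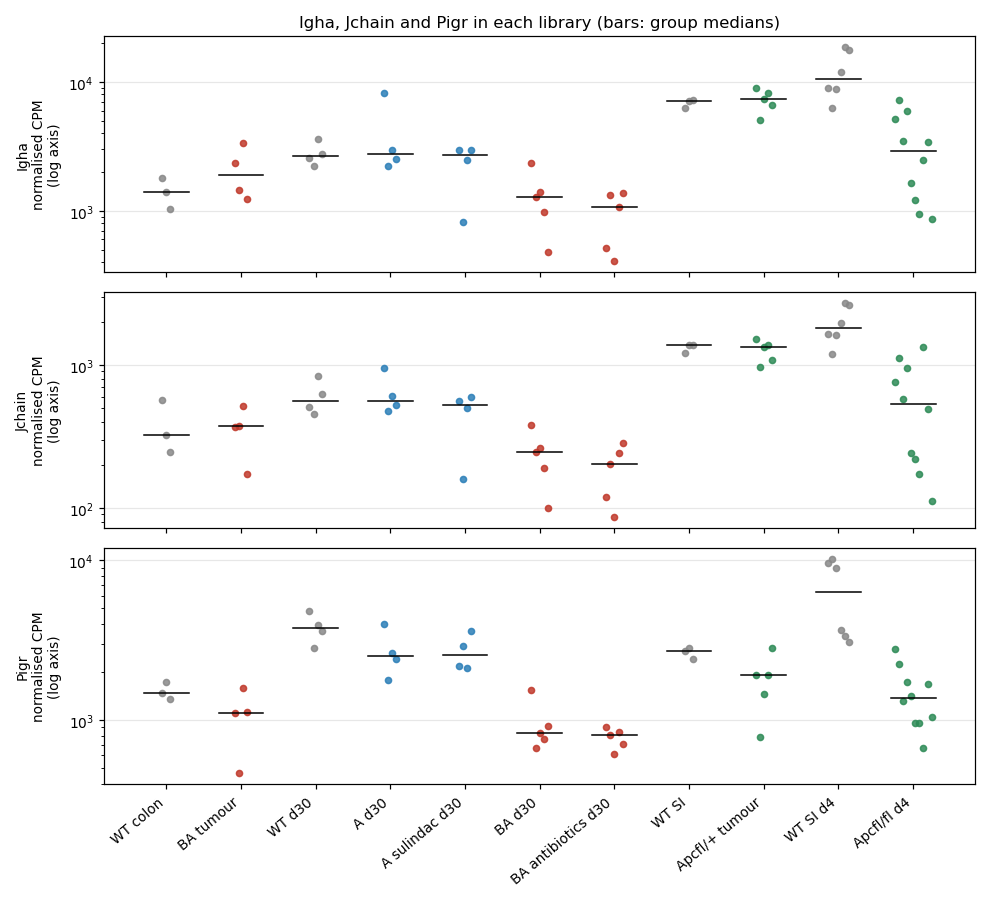
Igha, Jchain and Pigr in each of the 53 libraries, as normalised CPM on log axes, by group, with bars at group medians. The 10 BA libraries at d30, with or without antibiotics, lie at 617 to 1540 for Pigr, below every WT d30 library (2830 to 4830).

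In BA colon at d30, before endpoint tumours were taken, the IgA plasma cell transcripts and the epithelial receptor were both lower than in WT. Pigr was 4.05-fold lower, Jchain 2.59-fold, Mzb1 2.22-fold and Igha 2.16-fold, whereas the B cell genes Cd79a, Cd79b, Ms4a1 and Ighm were not called by edgeR. Of these, Ighm was called lower by DESeq2 (−0.72, adjusted p = 0.0346). The comparison asks what the BA genotype had done to the colon by this time. It called 55.1% of all genes tested, and 29.3% as lower, beside 4 of 8 members, all lower. Pigr was at 1540, 673, 827, 760 and 918 normalised CPM in BA and at 4830, 2830, 3910 and 3620 in WT. No BA library reached the lowest WT library. The log2 fold change of Pigr was −2.02 (SE 0.23, adjusted p = 2.969e-05).

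Jchain, the joining chain of polymeric IgA, was at 377, 244, 263, 191 and 100 in BA d30 and 505, 450, 838 and 621 in WT d30. These groups did not overlap either, a property that 45.4% of all genes shared, and the log2 fold change was −1.37 (SE 0.31, adjusted p = 0.003034). Igha was at 2350, 1270, 1400, 987 and 483 in BA and 2570, 2230, 3580 and 2770 in WT, so that BA replicate 1 alone reached into the WT range (log2 fold change −1.11, SE 0.34, adjusted p = 0.01638). With all 5 groups of d30 in 1 fit its adjusted p was 0.0584. Mzb1 was low throughout, at 0.31 to 1.55 in BA and 1.51 to 1.83 in WT (−1.15, adjusted p = 0.01795). Among the B cell genes, Ighm had the largest difference, −0.74 (adjusted p = 0.06134), with 5.73 to 18.9 in BA and 14.3 to 19.8 in WT. Cd79b gave −0.56 (adjusted p = 0.1133), Cd79a −0.15 and Ms4a1 −0.16. Leaving out BA d30 replicate 1, the highest of its group for every member, Pigr included, raised the number of members called from 4 to 7.

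Other plasma cell genes at d30 were divided. Of 10 tested, 5 fell, led by Tnfrsf17, the survival receptor BCMA (log2 fold change −1.76), Derl3 (−1.29) and Irf4 (−1.28), and 3 rose, namely Sdc1 (1.57), Prdm1 (1.16) and Fkbp11 (0.86). The list's median was −0.46 against −0.03 over all genes, but its summed level was higher, at 999 to 1120 normalised CPM against 673 to 730 in WT. Sdc1 and Prdm1 are also known from epithelial cells. Of 8 antibody constant genes tested, 2 fell, the light chain genes Igkc by 1.10 and Iglc2 by 2.13 on the log2 scale, a share near that of all genes. Genes that guide IgA induction and homing fell in 8 of 11 cases, with a median of −0.98. They included Ccl28 (−2.1), the epithelial chemokine for IgA plasma cells, Aldh1a1 (−1.74) and Aldh1a2 (−1.69), which make retinoic acid, and Tnfsf13 (−0.98) and Tnfsf13b (−0.85), which encode the survival factors APRIL and BAFF. Of 6 B cell genes tested outside the members, Cd37 fell and Cd72 rose.

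The epithelial markers did not fall with Pigr. All 9 of the list rose in BA d30, with a median of 0.81 and Krt18 the furthest at 2.72, and their summed level was 26300 to 30400 normalised CPM against 13200 to 15700 in WT. Within a library, Pigr relative to the mean of these markers was −1.52 ± 0.49 (SD, n = 5) on the log2 scale in BA and 1.63 ± 0.43 (n = 4) in WT, a difference of −3.15 without overlap (exact two-sided permutation p = 0.0159, the smallest this design allows; 0.132 after adjustment over the 50 ratio tests). Genes of vesicle traffic that serve transcytosis mostly rose, with Rab11a (0.74), Rab25 (0.71) and Myo5b (0.69) among 6 of 8, and Rab3b (−0.86) and the IgG receptor gene Fcgrt (−0.47) among the 2 that fell. Of 13 genes of signals known to raise Pigr, 10 were tested. Among these 5 rose, Il1b (1.69), Tnf (1.44), Il17ra (0.66), Relb (0.62) and Rela (0.44), and 0 fell. Il17a and Ifng, which were not tested, had no read in any BA d30 library. In WT d30 neither was without reads throughout. Of 6 neutrophil genes 2 were tested and 1 was called, with Ly6g at 10.77 and Csf3r at 0.5. The rest were too low to be tested. The sum of this list was 328 to 526 normalised CPM against 2.31 to 4.06 in WT. That rise came from Ly6g, the only gene of the list that was called. Of 8 T cell genes, 4 fell. Of 5 stromal genes 4 fell, with a median of −0.4, and of 4 smooth muscle genes 2 fell, with a median of −0.81. The part of these cell types in the members' levels was not tested. Jchain relative to Ptprc, the CD45 gene of all leukocytes, was lower by 1.32 on the log2 scale (exact two-sided permutation p = 0.0159, adjusted p = 0.132), while Ptprc itself differed by −0.13 (adjusted p = 0.412).

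**Figure D2:**
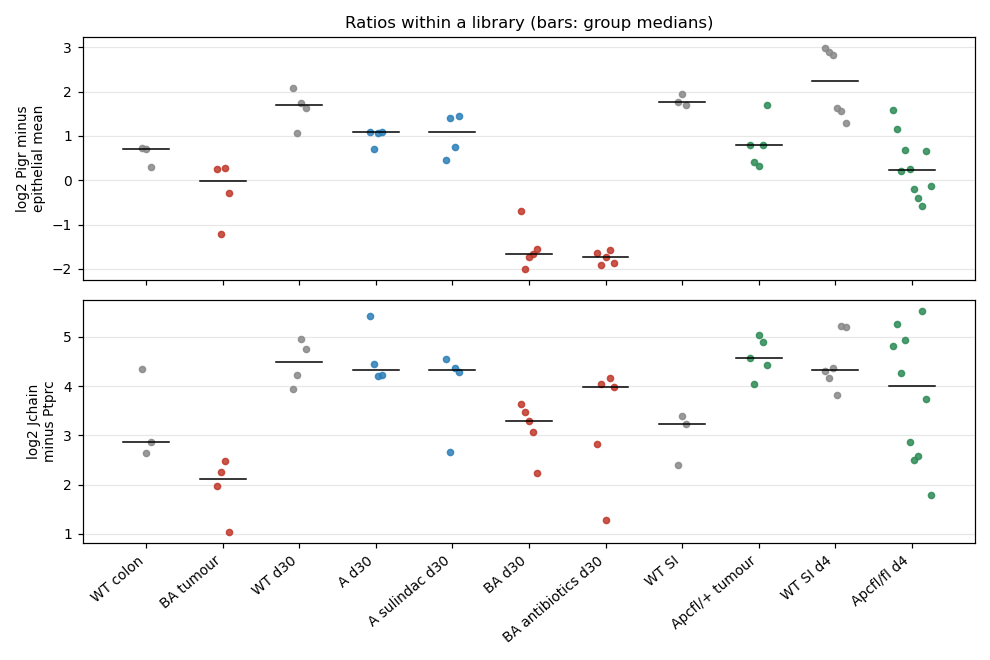
Log2 ratios within each library, by group, with bars at group medians: Pigr against the mean of 9 epithelial markers (upper) and Jchain against Ptprc (lower). Pigr relative to epithelium lies lowest in the BA groups at d30, and Jchain relative to Ptprc is higher in Apcfl/+ adenomas than in WT SI.

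Against A colon of the same day, in which both groups were above 10 CPM of Gm13394, BA colon showed the same members as lower and Cd79b besides. Of 8 members, 5 were called, all lower, beside 45.3% of all genes called and 23.6% called lower. Igha was 2.99-fold lower (log2 fold change −1.58, SE 0.45, adjusted p = 0.01475), Mzb1 2.96-fold (adjusted p = 0.01062), Pigr 2.82-fold (adjusted p = 0.001023), Jchain 2.66-fold (adjusted p = 0.00422) and Cd79b 2.12-fold (adjusted p = 0.04692). Jchain and Pigr did not overlap between the groups (36.1% of all genes did not). Cd79b, which pairs with Cd79a in the B cell receptor, missed the threshold under another scaling (adjusted p = 0.0507) and with antibody genes kept out of the scaling (adjusted p = 0.0522). Without A replicate 1, whose Igha was 8200 against 2220 to 2990 in the other A libraries, 3 members were called. Without BA d30 replicate 1, 8 were. Pigr relative to the epithelial markers was 2.51 lower than in A on the log2 scale, without overlap (exact two-sided permutation p = 0.0159, adjusted p = 0.132). The A libraries serve here as controls and the BA libraries are those compared with WT, so the comparisons are not independent.

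Antibiotics did not bring a detectable change in the members of BA colon. None of the 7 members tested was called by edgeR against untreated BA at d30, none had an unadjusted p under 0.05, and DESeq2 called none, whereas 13% of all genes were called. Ms4a1 was too low to be tested, at 0.173 to 1.47 with antibiotics and 0.414 to 3.04 without. Pigr was at 901, 806, 617, 836 and 710 normalised CPM with antibiotics, all inside the range of untreated BA but for replicate 3. Its log2 difference was −0.29, with a 95% confidence interval of −0.73 to 0.16. For Igha the interval ran from −1.40 to 0.45 and for Jchain from −1.15 to 0.46, so a lowering by more than 1 on the log2 scale was within reach of the error. Cd79a gave −0.91 (−2.06 to 0.24, adjusted p = 0.2526), and −0.18 without BA d30 replicate 1. Ighm gave 0.97 (adjusted p = 0.4143), a value set by BA antibiotics replicate 3 at 72, where the other 4 libraries were at 5.28 to 7.6. Without that library it was −0.71. The same library stood apart in stromal markers, at 5620 normalised CPM in sum against 891 to 1270 in the other 4, and in the B cell list, at 29.6 against 8.82 to 13.8, and the part of its tissue composition was not tested. Few list genes moved with the drugs: Cd72 (−1.56), Cxcl13 (−1.57), the chemokine that gathers B cells into follicles, and Irf1 (−0.47) fell, as did Rab25 (−0.30), and Rab3b (1.01) and Nfkb1 (0.17) rose.

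Set against WT d30, antibiotic-treated BA colon was lower in the same plasma cell genes and in Pigr. Of 8 members, 6 were called lower, where 39.6% of all genes were called and 17.8% were lower. Pigr was 4.9-fold lower (log2 fold change −2.29, SE 0.15, adjusted p = 2.8e-06), Jchain 3.25-fold (adjusted p = 0.002251), Igha 2.97-fold (adjusted p = 0.004648), Mzb1 2.3-fold (adjusted p = 0.01106), Cd79a 2.07-fold (adjusted p = 0.02025) and Cd79b 1.91-fold (adjusted p = 0.02799). All but Cd79a were without overlap, as were 32.8% of all genes. With all 5 groups in 1 fit, Cd79a (adjusted p = 0.116) and Cd79b (adjusted p = 0.0531) were not called. Ighm, at 0.23 (adjusted p = 0.8402), became −1.45 (adjusted p = 4.08e-05) without BA antibiotics replicate 3. In the lists, 5 of 6 antibody constant genes and 6 of 11 IgA induction genes fell, Ccl28 by 2.07 on the log2 scale, and all 9 epithelial markers rose again. These values share their WT libraries with the untreated comparison.

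A colon at d30 did not differ detectably from WT in any member. None of 8 was called by edgeR, none had an unadjusted p under 0.05 and DESeq2 called none, against 0.141% of all genes called. The log2 differences ran from −0.48 for Pigr to 0.57 for Cd79b, and the smallest adjusted p was 0.53. Pigr was at 3990, 1780, 2620 and 2420 in A, and Igha at 8200, 2220, 2990 and 2510. Replicate 1 was the highest of its group for all of the members but Ms4a1. Sulindac, an inhibitor of cyclooxygenases, left A colon without a call against WT as well: 0 of 8 members by edgeR, 0 at an unadjusted p under 0.05 and 0 by DESeq2, with 0.0507% of all genes called. There the differences lay between −0.48 and −0.01. Treated against untreated A colon gave 0 of 8 members by the same 3 counts and 0% of all genes, from −0.77 for Igha to 0.01 for Pigr. One sulindac library, replicate 2, was low in IgA genes, with Igha at 823 and Jchain at 158 where the other 3 were at 2470 to 2980 and 500 to 595. The 95% confidence interval of the Pigr difference was −1.03 to 0.07 for A, −0.98 to 0.01 for A with sulindac, both against WT, and −0.62 to 0.65 for treated against untreated A, so smaller changes of the receptor were not detectable with 4 libraries a group.

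**Figure D3:**
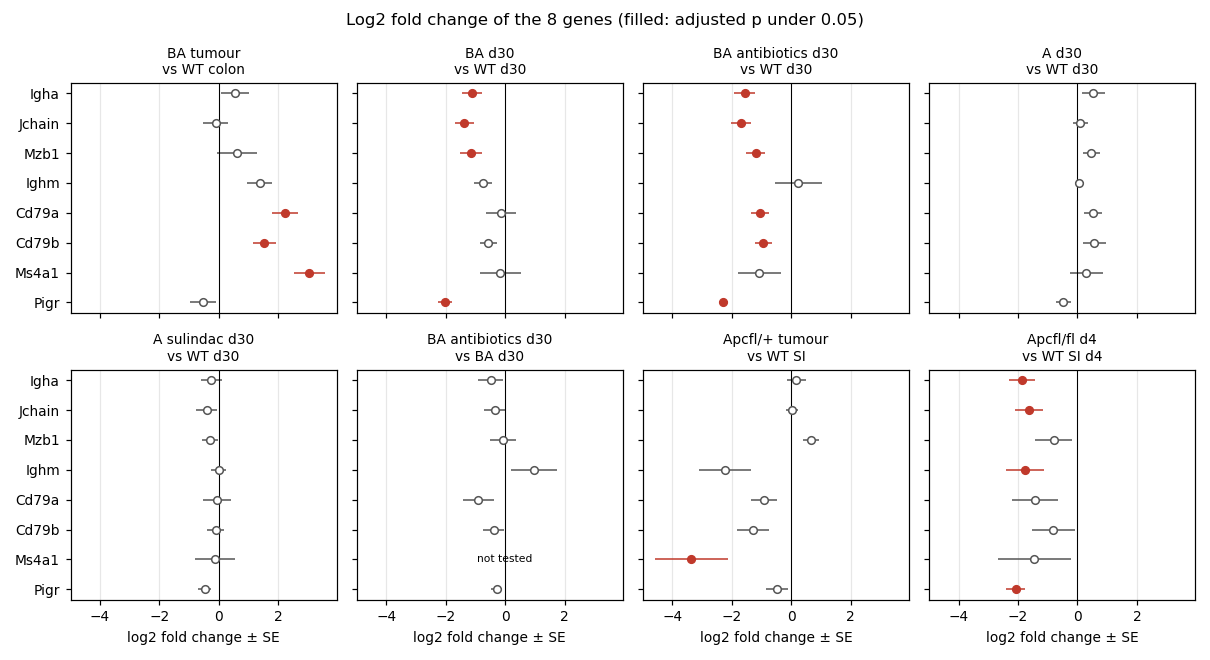
Log2 fold change ± SE of each member in 8 comparisons, with filled points where the adjusted p was under 0.05 in edgeR. The comparisons of BA colon at d30 lie to the lower side for Igha, Jchain, Mzb1 and Pigr, and endpoint BA tumours lie to the higher side for Cd79a, Cd79b and Ms4a1.

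Endpoint BA tumours differed from BA d30 in which members were called, with B cell genes higher than in WT colon and plasma cell genes without a call. Ms4a1 was 8.14-fold higher, Cd79a 4.67-fold and Cd79b 2.89-fold, while Igha, Jchain, Mzb1 and Pigr were not called. These 3 of 8 members stand beside 13.2% of all genes called and 7.46% called higher. Ms4a1, the CD20 gene, was at 6.05, 3.98, 10.3 and 4.98 normalised CPM in tumours and 1.23, 0.588 and 0.426 in WT colon (log2 fold change 3.03, SE 0.52, adjusted p = 0.008028). Cd79a was at 3.79, 5.71, 6.63 and 2.72 against 1.1, 1.12 and 0.758 (2.22, SE 0.43, adjusted p = 0.0123). Cd79b was at 4.7, 9.15, 11.9 and 6.69 against 3.52, 2.35 and 2.42 (1.53, SE 0.40, adjusted p = 0.03545). Every tumour lay above every WT colon in all 3 genes and in Ighm, as 27.5% of all genes were without overlap. Ighm was at 33.2, 74.2, 48.8 and 22 against 20.4, 11.1 and 19.5, a 2.59-fold difference that was not called (adjusted p = 0.06564) but was by DESeq2 (adjusted p = 0.0119).

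**Figure D4:**
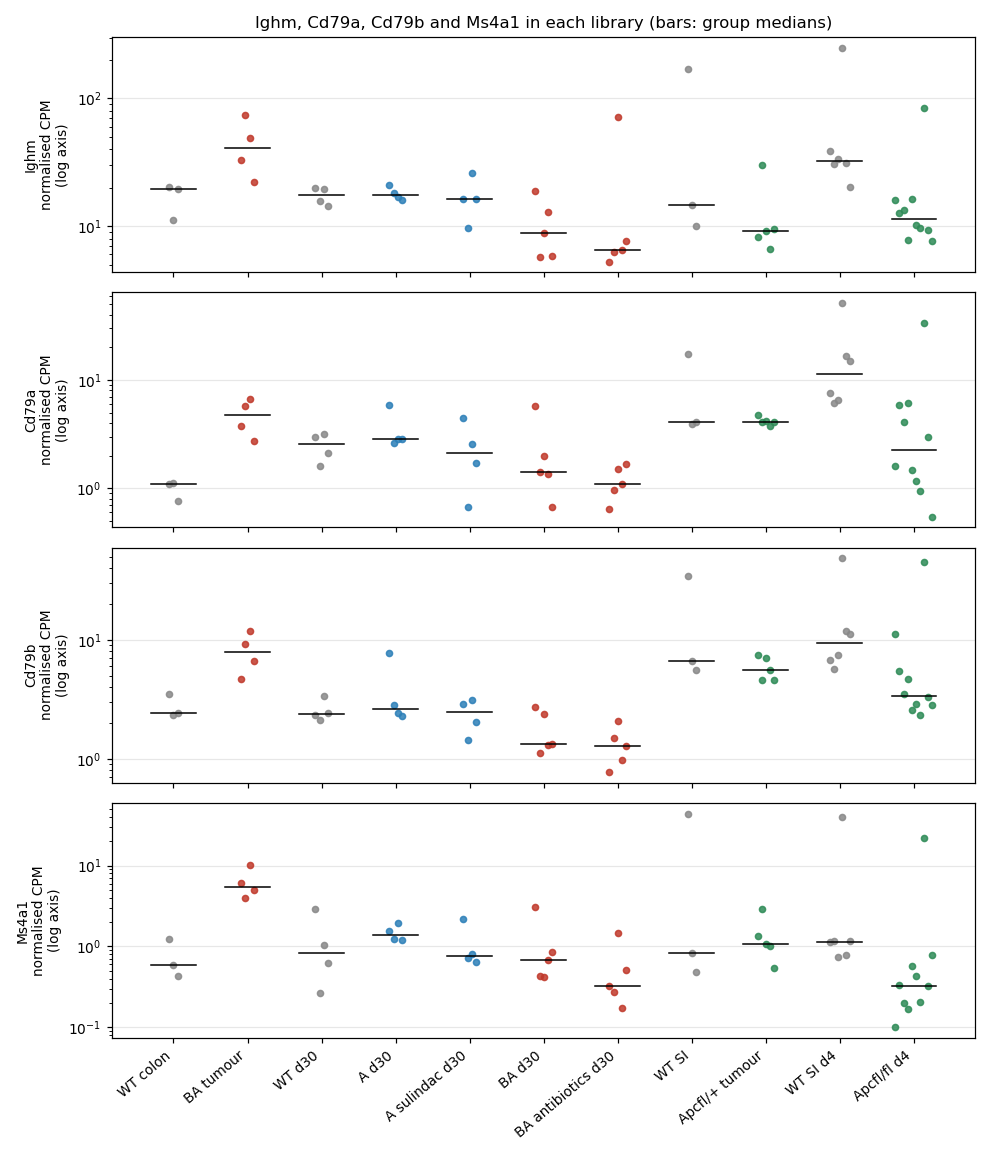
Ighm, Cd79a, Cd79b and Ms4a1 in each library, as normalised CPM on log axes, by group, with bars at group medians and values under 0.1 drawn at 0.1. The 4 endpoint BA tumours lie above the 3 WT colons in each gene, and single libraries of other groups, such as WT SI replicate 1 with Ms4a1 at 44.1, lie far above their group.

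With only 3 WT colons the calls moved when libraries were left out: Ms4a1 was called in all 7 such fits, Cd79a in 5 and Cd79b in 2. Tumour 2, the one under 10 CPM of Gm13394 like the WT colons, had Cd79a at 5.71 and Ms4a1 at 3.98, above every WT library. It was 1 library, with Ddx3y at 28.7 CPM against 0 to 0.1853 in WT colons, and the part of the split was not tested. The other members were close to WT in relation to their spread. Igha was at 2350, 1460, 3360 and 1240 in tumours and 1790, 1410 and 1040 in WT colon (log2 difference 0.55, adjusted p = 0.4931). Jchain gave −0.10 (adjusted p = 0.9054) and Mzb1 0.60 (adjusted p = 0.6161). Pigr was at 1100, 465, 1580 and 1120 against 1470, 1740 and 1360 (−0.54, adjusted p = 0.4625), and relative to the epithelial markers it was 0.82 lower without overlap, where the exact two-sided permutation test cannot go below its p of 0.0571. Jchain relative to Ptprc was 1.35 lower on the log2 scale with the same p, and Ptprc itself was higher by 1.19 (adjusted p = 0.0117).

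The wider B cell list moved with these members in tumours. Of 13 genes tested, 10 rose, with a median of 2.52 against 0.03 over all genes, among them Fcmr (5.02), the IgM receptor, Pax5 (4.81), which fixes B cell identity, Blk (4.19) and Cr2 (3.13). The summed level of the list was 51.8 to 83.4 normalised CPM in tumours and 18.1 to 20.6 in WT colon. Antibody constant genes rose in 3 of 9 cases, namely Ighd (4.95), Ighg2b (2.85) and Ighg2c (5.60). Follicle genes rose in 3 of 5, Ccr7 (4.45), Madcam1 (2.11) and Cxcr5 (2.04), which guide and admit lymphocytes. Of the germinal centre genes, Bcl6 rose (1.07) and Rgs13 fell (−2.36). In the plasma cell list Prdm1 (1.56) and Sdc1 (1.2) rose, and Tnfrsf17 was at −1.44 without a call. Il6 (5.77) and Tgfb1 (2.19), which serve antibody induction, rose and Aldh1a1 (−2.83) fell. None of 8 T cell genes was called, whereas all 6 neutrophil genes rose. Whether these cells bear on the members was not tested.

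Acute loss of Apc in the small intestine at d4 went with lower antibody and receptor transcripts. Pigr was 4.22-fold lower than in WT of the same day, Igha 3.63-fold, Ighm 3.38-fold and Jchain 3.12-fold. These 4 of 8 members were called, all lower, beside 54.2% of all genes called and 26.7% called lower. Pigr ran from 673 to 2780 normalised CPM in Apcfl/fl, with a median of 1370, and from 3060 to 10200 in WT, with a median of 6280. The groups did not overlap, as 16.9% of all genes did not, and the log2 fold change was −2.08 (SE 0.33, adjusted p = 6.305e-05). Relative to the epithelial markers Pigr was 1.88 lower on the log2 scale (exact two-sided permutation p = 0.000749, adjusted p = 0.0374), the only one of the 50 ratio tests past the threshold. Of those markers Krt18 rose (1.84) and 3 fell, with Vil1 at −1.13.

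Igha spanned 868 to 7210 in Apcfl/fl d4 (median 2930) and 6300 to 18700 in WT (median 10500), a log2 fold change of −1.86 (SE 0.44, adjusted p = 0.002059). Jchain spanned 112 to 1340 (median 535) and 1200 to 2720 (median 1810), at −1.64 (SE 0.47, adjusted p = 0.006955). Both genes overlapped at 1 Apcfl/fl library each, replicate 2 for Igha and replicate 8 for Jchain. Ighm, the IgM heavy chain, was at −1.76 (SE 0.64, adjusted p = 0.02666), and without WT SI d4 replicate 4, whose Ighm was 249 against 20.1 to 38.8 in the other 5, it was −0.61 (adjusted p = 0.36). Mzb1 (−0.80), Cd79a (−1.43), Cd79b (−0.81) and Ms4a1 (−1.45) were not called, though DESeq2 called Cd79b, at −1.89 (adjusted p = 5.18e-05). Ms4a1 likewise went to 1.48 without WT SI d4 replicate 4 and to −4.3 without Apcfl/fl d4 replicate 8, and Cd79b to 0.03 and −2.09. Both libraries were also left out together, a choice made after the data were seen and from their B cell reads, members included. All 8 members were then called lower, where 59.4% of all genes were called in either direction. As the choice used the members' own values, this fit is no independent test of them. Cd79a was then at −1.89 (adjusted p = 0.00437), Mzb1 at −1.68 (adjusted p = 0.00389), Ms4a1 at −1.38 (adjusted p = 0.00185), Cd79b at −1.24 (adjusted p = 0.00202) and Pigr at −2.12.

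Values were also taken on either side of 10 CPM of Gm13394. Among the 4 Apcfl/fl and 3 WT libraries below it, Igha gave −0.48 (adjusted p = 0.128), Jchain −0.73 (adjusted p = 0.0159) and Pigr −2.16 (adjusted p = 9.89e-05), with 59.3% of all genes called. Among the 6 and 3 above it, Igha gave −3.18 (adjusted p = 0.00166), Jchain −2.44 (adjusted p = 0.0274) and Pigr −1.59 (adjusted p = 0.00295), with 5490 genes called in all. WT Pigr itself stood at 8890 to 10200 below the split and 3060 to 3680 above it, and WT Igha at 6300 to 9010 and 11900 to 18700. The difference between the splits was not tested, and what the split marks is not given in the sources used here. With the split as a term, Igha was at −2.1 and Pigr at −1.86 (adjusted p = 2.85e-06), and 4 of 8 members were called beside 54% of all genes.

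**Figure D5:**
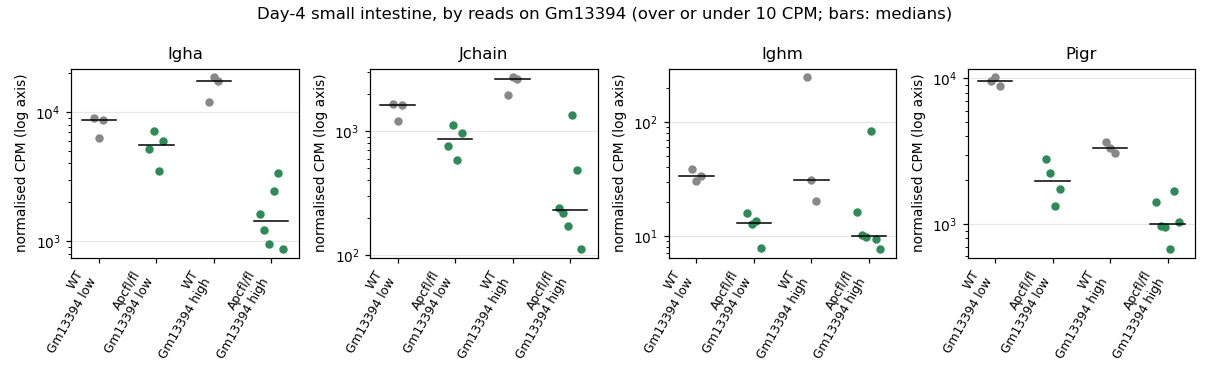
Igha, Jchain, Ighm and Pigr in the d4 libraries, as normalised CPM on log axes, divided by genotype and by Gm13394 above or below 10 CPM. Pigr in WT lies at 8890 to 10200 below the split and 3060 to 3680 above it, and Apcfl/fl lies under WT on both sides.

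Plasma cell genes outside the members fell in 8 of 10 cases at d4 and Sdc1 (1.22) rose. IgA induction and homing genes fell in 10 of 11, with a median of −1.53 against 0 over all genes, led by Aldh1a1 (−3.09), Ccl28 (−2.14), Itgb7 (−1.75) and Ccl25 (−1.72). Itgb7 encodes a chain of the integrin that admits plasma cells to the gut wall. B cell genes fell in 5 of 8, T cell genes in 7 of 8, and Ptprc by 1.41 on the log2 scale (adjusted p = 8.9e-07). The part of fewer leukocytes in the members' levels was not tested.

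In Apcfl/+ adenomas Igha and Jchain, the transcripts of polymeric IgA, were not called against WT SI. Igha was at 8910, 5080, 7430, 8150 and 6630 in adenomas and 6290, 7080 and 7290 in WT (log2 difference 0.17), and Jchain differed by 0.02. Pigr was at 1910, 787, 1450, 1900 and 2820 against 2690, 2830 and 2420 (−0.48, adjusted p = 0.2739). Ms4a1 alone of 8 members was called, 10.2-fold lower (log2 fold change −3.36, SE 1.22, adjusted p = 0.03857), beside 61.5% of all genes called. DESeq2 called 2 others, Mzb1 at 0.63 (adjusted p = 0.0402) and Cd79a at −0.95 (adjusted p = 0.0492), and gave no adjusted p for Ms4a1. The Ms4a1 call rested on WT SI replicate 1, whose Ms4a1 was 44.1 where the other WT libraries were at 0.837 and 0.486 and adenomas at 0.546 to 2.88. Without it Ms4a1 was at 1.15 (adjusted p = 0.174), Ighm went from −2.23 to 0.15, Cd79a from −0.92 to 0.16, Cd79b from −1.29 to 0.05, and no member was called, beside 53.2% of all genes. The summed B cell list, 34.4 to 297 in WT SI, moved with that library.

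Outside the members, 8 of 11 B cell genes fell in adenomas, with Cr2 at −4.21, in the same fit that held WT SI replicate 1. Plasma cell genes rose in 5 of 10, including Sdc1 (2.49), Fkbp11 (1.10) and Txndc5 (1.09), and 2 fell, so that the share called was near the 61.5% of all genes. Ighg1 (3.09) and Ighg2c (1.80) rose. Jchain relative to Ptprc was higher by 1.59 on the log2 scale in adenomas (exact two-sided permutation p = 0.0357, the smallest possible; adjusted p = 0.255), while Ptprc fell by 1.61 (adjusted p = 0.00024).

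The log2 fold changes of the B cell genes differed between the tumour types when the difference itself was tested. The effect in BA tumours less that in Apcfl/+ adenomas was 3.17 for Cd79a (SE 0.65, adjusted p = 0.00248), 2.85 for Cd79b (adjusted p = 0.008113), 6.40 for Ms4a1 (adjusted p = 0.006785) and 3.63 for Ighm (adjusted p = 0.02077), with 39.7% of all genes called. Without WT SI replicate 1, Cd79a at 2.08 (adjusted p = 0.00472) and Cd79b at 1.5 (adjusted p = 0.0265) were still called, Ms4a1 at 1.90 (adjusted p = 0.0932) and Ighm at 1.23 (adjusted p = 0.214) were not, and 32.2% of all genes were. The tumour types differ in organ, genotype and background, and each comparison with WT in its Gm13394 and Ddx3y reads. None of these can be told apart here.

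Tumour and d30 effects in BA mice also differed. The log2 fold change in tumours less that at d30 was 2.35 for Cd79a (adjusted p = 0.03741), 2.07 for Cd79b (adjusted p = 0.007651), 3.18 for Ms4a1 (adjusted p = 0.03654), 2.1 for Ighm (adjusted p = 0.0167) and 1.48 for Pigr (adjusted p = 0.0383), beside 16.3% of all genes called. Igha gave 1.66 (adjusted p = 0.05942). Pigr itself was at −0.54 in tumours and −2.02 at d30, so its difference was a smaller lowering in tumours and not a rise. For Pigr the BA groups overlapped, at 465 to 1580 in tumours and 673 to 1540 at d30, whereas their WT controls did not, at 1360 to 1740 and 2830 to 4830. The log2 fold change in Apcfl/+ adenomas less that in Apcfl/fl d4 was 2.01 for Igha (adjusted p = 0.04248) and 1.62 for Pigr (adjusted p = 0.04546), where 24.7% of all genes were called. Igha was at 0.17 and Pigr at −0.48 in adenomas, against −1.86 and −2.08 at d4. Under RLE scaling the differences were 1.85 for Igha (adjusted p = 0.06451) and 1.43 for Pigr (adjusted p = 0.07317), and neither was called. The 3 libraries high in B cell reads were also left out, a choice made after the data were seen. In that fit 5 members were called beside 28.8% of all genes: Pigr (1.75, adjusted p = 0.0454), Mzb1 (2.19, adjusted p = 0.0293), and Ighm, Cd79b and Ms4a1, whose signs turned from −0.49 to 1.64, −0.49 to 1.28 and −1.90 to 2.54. Igha, at 1.99, was then not called (adjusted p = 0.0825).

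Within groups, Igha, Jchain and Mzb1 varied together, and Cd79a with both these and the other B cell genes. Over the deviations of the 53 libraries from their group means, which share depth and tissue composition, Pearson's r was 0.9 between Igha and Jchain, 0.85 between Jchain and Mzb1 and 0.78 between Ighm and Ms4a1. Cd79a gave 0.81 with Cd79b, 0.66 with Ms4a1 and 0.63 with Ighm, but also 0.74 with Jchain, 0.69 with Mzb1 and 0.58 with Igha. It was 0.31 between Igha and Pigr, −0.07 between Igha and Ms4a1 and −0.28 between Ms4a1 and Pigr. Outside the antibody segments, the genes most like Jchain among 12182 were Irf4 (0.885), Derl3 (0.87), Pou2af1 (0.803), Lax1 (0.653) and Atp6v0e2 (0.645). Those most like Cd79a were Cd79b (0.81), Lax1 (0.79), Derl3 (0.781), Pou2af1 (0.776) and Map4k1 (0.753). For Pigr they were Slc35f2 (0.787), Sdha (0.741), Sft2d2 (0.74), Mul1 (0.727) and Ndufs1 (0.723), none of them in the antibody lists.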

How the data were processed

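Per the labels and the study's methods, RNA was purified with RNeasy, libraries were made with TruSeq RNA v2, which does not mark strand, and paired reads of 36 bases were taken on a NextSeq 500. The authors deposited 1 table of raw counts per gene. The submitters' processing notes name FastQC 0.11.8, Trim Galore 0.6.4, HISAT2 2.1.0 and featureCounts 1.6.4. The treatment of reads with several matches is not given in the sources used here.

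Counts were tested with edgeR 4.0.16 in R 4.3.3 (filterByExpr, TMM, quasi-likelihood F test, Benjamini-Hochberg), each comparison fitted on its own groups without covariates. Differences between effects were tested as interactions. SE was the log2 fold change over the square root of F. Within-library ratios used an exact permutation test. DESeq2 1.42.0, RLE scaling, no low-count filter, antibody genes left out of the scaling, a replicate block, a fit of all d30 groups and leaving out each library were tried. The scripts were tested on simulated counts. The members and lists were chosen with earlier results of these data known. The text names all members and, per list and comparison, genes among those past the threshold and the extremes, and for Jchain, Cd79a and Pigr the 5 genes of highest r with a mean log2 CPM of at least 2. Symbols came from GENCODE M21 on GRCm38 and promoters from RefSeq on GRCm38.p6. The figures of 3 reads per library (0.0914 to 5.8 CPM) cover counting error only.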

Additional observations from a re-analysis of the deposited data

Results flagged for a closer look

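In 72 sets of a member and a group of 4 to 10 libraries, 12 had 1 library far from the rest by Dixon's test at 95%, where chance gives about 1 in 20. Ighm, Cd79a, Cd79b and Ms4a1 made up most of them. Apcfl/fl d4 replicate 8 stood high in Ighm (83.5 normalised CPM), Cd79b (45) and Ms4a1 (22.1), and WT SI d4 replicate 4 in Ighm (249), Cd79b (48.5) and Ms4a1 (40.3). BA antibiotics replicate 3 was high in Ighm (72), Apcfl/+ adenoma 2 in Ighm (30.19), and A d30 replicate 1 in Cd79a (5.82) and Cd79b (7.78). That A library was also the highest of its group in Igha, Jchain and Mzb1, but not in Ms4a1. A sulindac replicate 2 was low in Igha (823) and Jchain (158). WT SI replicate 1 belongs to a group of 3 and was not tested.

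The other values singled out are effects that differed between comparisons by the interaction test. Endpoint BA tumours against Apcfl/+ adenomas gave 3.63 for Ighm, 3.17 for Cd79a, 2.85 for Cd79b and 6.4 for Ms4a1 on the log2 scale. BA tumours against BA d30 gave 2.1 for Ighm, 2.35 for Cd79a, 2.07 for Cd79b, 3.18 for Ms4a1 and 1.48 for Pigr. Apcfl/+ adenomas against Apcfl/fl d4 gave 2.01 for Igha and 1.62 for Pigr. The causes were not tested.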

How the results depend on the processing

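Of the 23 member calls, 121 of 128 fits under another planned setting and 205 of 228 fits without 1 library kept direction and call. Members called against WT SI in Apcfl/+ adenomas went from 1 to 2 without the filter (Ms4a1 and Ighm) or with DESeq2 (Mzb1 and Cd79a), and to 0 with a replicate block or without WT SI replicate 1. At d4 they went from 4 to 8 with the block or without the libraries high in B cell reads. For the adenoma and d4 interaction they went from 2 to 0 with RLE scaling and to 5 without those libraries, and for the BA tumour and adenoma interaction from 4 to 2 without WT SI replicate 1. Without 1 library at a time the counts ran from 1 to 3 in BA tumours, 0 to 4 in adenomas, 3 to 8 at d4, 4 to 7 in BA d30, 4 to 7 in BA antibiotics against WT and 3 to 8 in BA against A.

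Genes called moved in BA tumours from 2527 to 931 (block) and 3798 (DESeq2), or 696 to 3641 without 1 library, in adenomas from 12650 to 8333 (block), at d4 from 9504 to 5490 (Gm13394 over 10 CPM), in A from 25 to 72 (no filter) and 136 (DESeq2), in A sulindac against WT from 9 to 24 (no filter), 2 (block), 111 (DESeq2) and 29 (all d30 groups), in BA antibiotics against BA from 2172 to 1284 (block) and 1074 (all d30 groups), and in A sulindac against A from 0 to 1 (no filter), 1 (block) and 5 (DESeq2).

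Signs turned for values that were not called: with the block Jchain in BA tumours (0.21), Ms4a1 in A sulindac (0.06), Ighm in BA antibiotics against WT (−0.65) and Mzb1 in BA antibiotics against BA (0.03); with RLE or DESeq2 Jchain in adenomas (−0.01); without WT SI replicate 1 Ighm (0.15), Jchain (−0.03), Cd79a (0.16), Cd79b (0.05) and the called Ms4a1 (1.15); and for Pigr in A sulindac against A without the filter (−0.0045) or with all d30 groups (−0.0013). Without 1 library at a time, signs also turned within these ranges of log2 difference, in 1 case with a call (Ighm, BA antibiotics against WT, −1.45 to 0.42). In BA tumours Jchain ran from −0.35 to 0.32. In adenomas Ighm ran from −2.82 to 0.15, Jchain −0.07 to 0.11, Cd79a −1.25 to 0.16, Cd79b −1.68 to 0.05 and Ms4a1 −3.92 to 1.15. At d4 Cd79b ran from −2.09 to 0.03 and Ms4a1 −4.3 to 1.48. In BA d30 Cd79a ran from −0.9 to 0.09 and Ms4a1 −1.02 to 0.71. In A against WT Igha ran from −0.11 to 0.72, Ighm −0.02 to 0.13, Jchain −0.17 to 0.29, Cd79b −0.03 to 0.76 and Ms4a1 −0.03 to 1.19. In A sulindac against WT Igha ran from −0.4 to 0.03, Ighm −0.29 to 0.19, Cd79a −0.58 to 0.26, Cd79b −0.27 to 0.08 and Ms4a1 −0.72 to 0.77, and against A Ighm ran from −0.32 to 0.11 and Pigr −0.17 to 0.26. In BA antibiotics against BA Ighm ran from −0.71 to 1.3 and Mzb1 −0.31 to 0.41.

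DESeq2 gave no adjusted p for Ighm, Cd79b and Ms4a1 in adenomas or for Ighm and Ms4a1 at d4. Replicate numbers gave no clear pairing of the libraries (same-number correlations −0.44 to 0.23), though 2 of 6 pairs at d4 were over 0.1. At d4 they ran with Gm13394 in both groups, replicates 1 to 3 being under 10 CPM and 5 and 6 over it. Settings by Gm13394 and by B cell reads were chosen after seeing the data. Mzb1 and Ms4a1 had few reads in shallow libraries, which limits their precision. The causes were not tested.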

Other observations

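WT proximal colon was sampled in 2 sets. Pigr was at 1360 to 1740 normalised CPM in the 3 WT colons set against endpoint tumours and at 2830 to 4830 in the 4 WT colons of d30, and Igha at 1040 to 1790 and 2230 to 3580. No test was made between the sets, whose day and batch the labels do not match. Single heavy chain V segments took a large share of V segment reads in some libraries, with Ighv10-1 at 39.7% in WT d30 replicate 4 and Ighv1-9 at 35.1% in BA antibiotics replicate 4.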
